A study of Mus musculus with 63 samples.

Results

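C57BL/6 organoids were compared with VillinCreERT2 organoids, 2 mouse small intestinal organoid lines that both carry intact alleles of the Mediator kinases Cdk8 and Cdk19. The members were chosen by their labels: the 3 libraries labelled C57BL/6 and the 3 labelled VillinCreERT2 in the table of organoids collected at 7 days, 6 of the 63 samples of the series. The series asks what loss of CDK8 and CDK19 does in intestinal epithelium, and these are its kinase-intact organoid groups at that time. Both lines had received 100 nM 4-OHT (4-hydroxytamoxifen, which activates CreERT2) for 24 h, and both grew in Matrigel with Noggin, R-Spondin and EGF. The labels give C57BL/6 as the strain of both lines, and as the genotype of the first, which carries no Cre. The VillinCreERT2 line carries a tamoxifen-inducible Cre recombinase driven by the villin promoter, which is active in intestinal epithelium, and no floxed Cdk8 allele. By the column names each group is 1 organoid line, and the labels name the small intestine without a region. Line, mouse of origin, Cre transgene and any handling that went with a line therefore cannot be told apart. The same table holds 3 other lines with 3 libraries each, VillinCreERT2; Cdk8 fl/fl, Cdk8 fl/fl; Cdk19 ko/ko and VillinCreERT2; Cdk8 fl/fl; Cdk19 ko/ko, all given 4-OHT, which are used here only to show where a control line stands.

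Small intestinal organoids are grown from crypts and keep the crypt's stem cells, Paneth cells and dividing progenitors together with absorptive enterocytes and goblet, tuft and enteroendocrine cells. The position along the duodenum, jejunum and ileum is held in the epithelium itself: proximal cells take up iron and sugars, distal cells recover bile acids and vitamin B12, and organoids are known to keep much of this identity in culture. Hox genes, transcription factors laid out in clusters, mark position along the body axis during development. In bulk RNA, fewer cells of a type and less RNA per cell cannot be told apart.

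Levels are CPM (counts scaled to a common library size), with TMM as the between-library normalization. Each log2 fold change is C57BL/6 minus VillinCreERT2 with its standard error (SE), and adjusted p-values are from edgeR's quasi-likelihood test over all tested genes. A gene was called when the adjusted p was under 0.05 and the fold change over 1.5, the study's cutoffs. Of 15125 genes tested, 3986 were called (26.4%), 2341 higher in C57BL/6 (15.5%) and 1645 lower (10.9%), and the median log2 fold change of all genes was 0.02. The 3 libraries of each line did not overlap for 9640 genes (63.7%), and 3833 of the called genes were among these. More genes were called here than between any other of the 10 pairs of the 5 lines. Among called genes, the 3 libraries of C57BL/6 alone lay outside the range of the 12 other libraries for 946 (23.7%), those of VillinCreERT2 alone for 777 (19.5%), those of both lines for 351 (8.81%) and those of neither for 1912 (48.0%).

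Library properties moved with the lines. Totals were 15485959 to 17634381 counts in C57BL/6 and 20424462 to 21439044 in VillinCreERT2, mitochondrial genes took 6.42% to 6.57% against 3.67% to 5.13% of counts, and ribosomal protein genes took 2.48% to 3.11% against 1.69% to 1.72%. The column names follow 2 styles, one shared by VillinCreERT2 and VillinCreERT2; Cdk8 fl/fl and one by the other 3 lines, and 1180 called genes (29.6%) separated all 15 libraries by that style, against 17.9% of all tested genes. What the styles stand for is not given in the sources used here, and their part in the results was not tested. Cdk8 was at 62.3, 54.0 and 54.3 CPM in C57BL/6 and 80.8, 71.9 and 74.2 in VillinCreERT2, a log2 fold change of -0.41 (SE 0.06, adjusted p = 4.16e-06) that is under the fold cutoff. Cdk19 was at 34.5, 29.7 and 28.7 against 29.1, 27.8 and 27.2 CPM (0.14, SE 0.07, adjusted p = 0.0883), so both kinases were expressed in both lines.

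**Figure D1:**
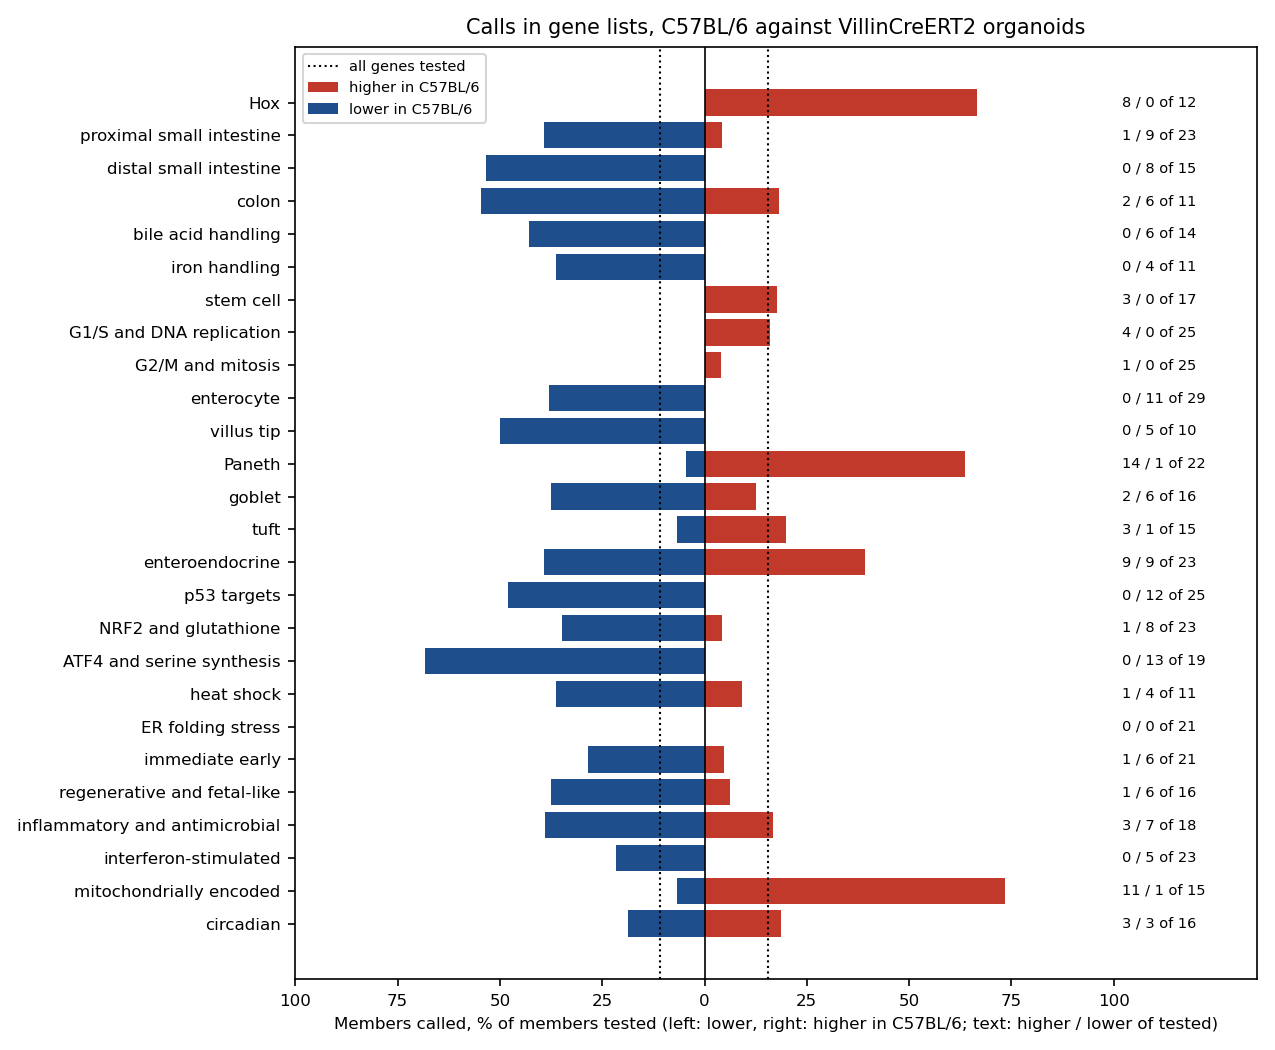
Members of each gene list called higher or lower in C57BL/6 than in VillinCreERT2 organoids, as a share of the tested members (x axis, percent, lower to the left and higher to the right), 1 bar row per list, with dotted lines for all genes tested. Paneth and Hox genes lie on the higher side and distal, p53, ATF4 and NRF2 genes on the lower side, against 15.5% and 10.9% of all genes.

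C57BL/6 organoids held more RNA of 8 Hox genes than VillinCreERT2 organoids. They held much less of the ileal bile acid genes Fabp6 and Slc10a2 and of the duodenal iron gene Cybrd1. Of 39 Hox genes, 12 passed the filter on low counts, and 8 were called higher in C57BL/6 and none lower. The median log2 fold change of the 12 was 1.76, while 13 had no count in the 6 libraries. Because the filter can keep a gene for the line in which it is high, the 8 of 12 describes only the genes that passed.

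All but 1 of the 8 lie in the Hoxb cluster on chromosome 11, and Hoxa7 lies at chr6:52214491-52221854 (GRCm38). Hoxa7 was at 3.87, 4.83 and 5.41 CPM in C57BL/6 and 0.237, 0.192 and 0.350 in VillinCreERT2, a log2 fold change of 4.15 (SE 0.32, adjusted p = 2.92e-11). Hoxb7 was at 12.3, 11.8 and 13.3 against 1.38, 1.58 and 0.350 CPM (3.48, SE 0.36, adjusted p = 1.18e-06), and Hoxb6 at 12.5, 11 and 11 against 1.99, 2.49 and 0.750 (2.70, SE 0.34, adjusted p = 9.12e-06). The groups did not overlap for any of these. Hoxb5 (3.58) and Hoxb3 (3.24) rose as well, Hoxb4 by 1.77 and Hoxb8 by 1.75. Hoxb9, the most posterior of the called genes, was at 12.3, 11.3 and 12.3 against 4.94, 5.95 and 1.10 CPM (1.57, SE 0.60, adjusted p = 0.0427), and leaving out a single library gave adjusted p-values from 0.0675 to 0.112 in 5 of 6 cases. Hoxb8 lost its call without C57BL/6 replicate 2 (adjusted p = 0.0773). For each of the 8 genes all 3 C57BL/6 libraries were above the 12 other libraries. The 4 tested genes of the anterior Hoxa cluster, Hoxa2 to Hoxa5, had log2 fold changes from -0.36 to 0.19 and were not called. Strandedness of the counting is not stated, so reads of antisense transcripts in the Hoxb cluster cannot be separated from those of the genes they overlap.

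Some genes of proximal iron handling were lower in C57BL/6. Cybrd1, the duodenal ferric reductase (chr2:71117923-71142926), was at 1.71, 1.19 and 0.989 CPM in C57BL/6 and 169, 111 and 200.3 in VillinCreERT2, a log2 fold change of -6.95 (SE 0.34, adjusted p = 1.05e-08). The 3 other lines averaged 61.8, 33.9 and 51.7 CPM, so they lay between the 2 control lines. Slc40a1, the iron exporter ferroportin, was at 9.01, 8.64 and 10.4 against 53, 54.6 and 68.5 CPM (-2.65, SE 0.17, adjusted p = 9.65e-09), and Slc11a2, the apical iron importer DMT1, fell by 1.07 on the log2 scale. Epas1, the hypoxia-inducible factor that drives duodenal iron genes, was lower as well (-0.91). The iron handling list had 4 of 11 tested genes called lower (36.4%, beside 10.9% of all genes) and none higher, with a median of -0.40.

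Of 23 proximal genes tested, 9 were called lower and 1 higher, with a median of -0.44. Pdx1, the duodenal homeobox factor, was at 0.381, 0.455 and 0.349 CPM against 10.7, 7.10 and 9.90 (-4.52, SE 0.39, adjusted p = 4.15e-08), and the 3 other lines averaged 2.46, 0.971 and 7.33 CPM. Bco1, which splits beta-carotene into retinal, fell by 2.18 on the log2 scale. The gene called higher was Gip, the incretin hormone of proximal K cells, at 41.5, 45 and 52 against 25.9, 24.4 and 28.7 CPM (0.81, SE 0.08, adjusted p = 3.84e-09). Gata4, which sets jejunal against ileal identity, was at 186, 201 and 193 against 224, 214 and 262 CPM, and the log2 fold change of -0.27 (SE 0.06, adjusted p = 0.000432) is under the fold cutoff. Onecut2, a proximal transcription factor, had overlapping values and was not called (-0.53, SE 0.17, adjusted p = 0.0197), but passed both cutoffs without VillinCreERT2 replicate 2 (-0.71, adjusted p = 0.000123).

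Of 15 distal genes tested, 8 were called lower and none higher, with a median of -0.84. Of the 8, the libraries of VillinCreERT2 alone lay outside the range of all other libraries for 4. Those of C57BL/6 alone did for 2, those of both lines for 1 and those of neither for 1. Fabp6, the ileal bile acid-binding protein (chr11:43596049-43601540), was at 0.190, 0.455 and 0.0582 CPM, which are 3, 8 and 1 counts, against 211, 306 and 111 CPM in VillinCreERT2 (-9.74, SE 0.94, adjusted p = 4.69e-06). Without C57BL/6 replicate 2 the log2 fold change was -10.67. Slc10a2, the apical bile acid transporter ASBT, was at 2.48, 2.10 and 1.98 against 73.4, 110.3 and 34.6 CPM (-5.06, SE 0.52, adjusted p = 7.93e-06). The 3 other lines were in between for both genes, at 6.59, 39.3 and 19.1 CPM of Fabp6 and 14.0, 40.9 and 28.5 CPM of Slc10a2, so the means of both control lines lay outside them.

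Cubn, the receptor that takes up vitamin B12 with its carrier, was at 0.825, 1.19 and 1.51 against 24.5, 30.9 and 17.4 CPM (-4.35, SE 0.29, adjusted p = 5.65e-09). Plb1, a brush border phospholipase, fell by 3.54 on the log2 scale. The 3 other lines averaged 0.853, 4.82 and 1.17 CPM of Cubn, beside a C57BL/6 mean of 1.18. Of Plb1 they averaged 1.2, 6.1 and 1.4 CPM, beside a C57BL/6 mean of 1.1. For both genes the libraries of VillinCreERT2 alone lay outside the range of all other libraries. The distal L cell hormones were lower in C57BL/6 than in VillinCreERT2 as well. Pyy was at 0.444, 0.796 and 0.291 against 4.94, 8.16 and 4.55 CPM (-3.50, SE 0.42, adjusted p = 2e-06), and Gcg, which encodes GLP-1, was at 16.1, 14.8 and 12.3 against 70.4, 84.0 and 57.6 (-2.30, SE 0.21, adjusted p = 1.88e-06). Bile acid handling had 6 of 14 genes called lower and none higher, among them Baat, which conjugates bile acids (-1.56), and Nr0b2, the bile acid-induced repressor SHP (-1.75).

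Of 11 tested colon genes, 6 were called lower and 2 higher. Car1, a colonic carbonic anhydrase, had no count in C57BL/6 and was at 3.42, 51.2 and 4.20 CPM in VillinCreERT2, at least 110-fold lower at a floor of 3 counts in each library. Most of that VillinCreERT2 level came from replicate 2. Without that library the bound was 21.3-fold, and with only the 6 libraries in the fit Car1 was not called (adjusted p = 0.226). Aqp8, a water channel, was at 0.508, 0.114 and 0.116 against 8.07, 5.66 and 9.45 CPM (-4.98, SE 0.41, adjusted p = 3.79e-08), and at -5.99 without C57BL/6 replicate 1. Car4, a membrane carbonic anhydrase, fell by 3.29 on the log2 scale. Aqp4, another water channel (0.73), and the pentraxin Mptx1, at 24.3, 30.6 and 43.1 against 14, 13.7 and 9.5 CPM, were the members called higher.

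Among 21 tested regional transcription factors, 3 were called lower and 1 higher (19.0%, under the 26.4% of all genes), and 2 of the 4 separated the libraries by column style. Cdx1, an intestinal homeobox factor, was at 178, 207 and 225 against 304, 315 and 303 CPM, and its log2 fold change of -0.59 (SE 0.07) lay just past the fold cutoff and fell to -0.51 without C57BL/6 replicate 1. Maf, a factor of the enterocyte programme, was the member called higher (0.93).

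**Figure D2:**
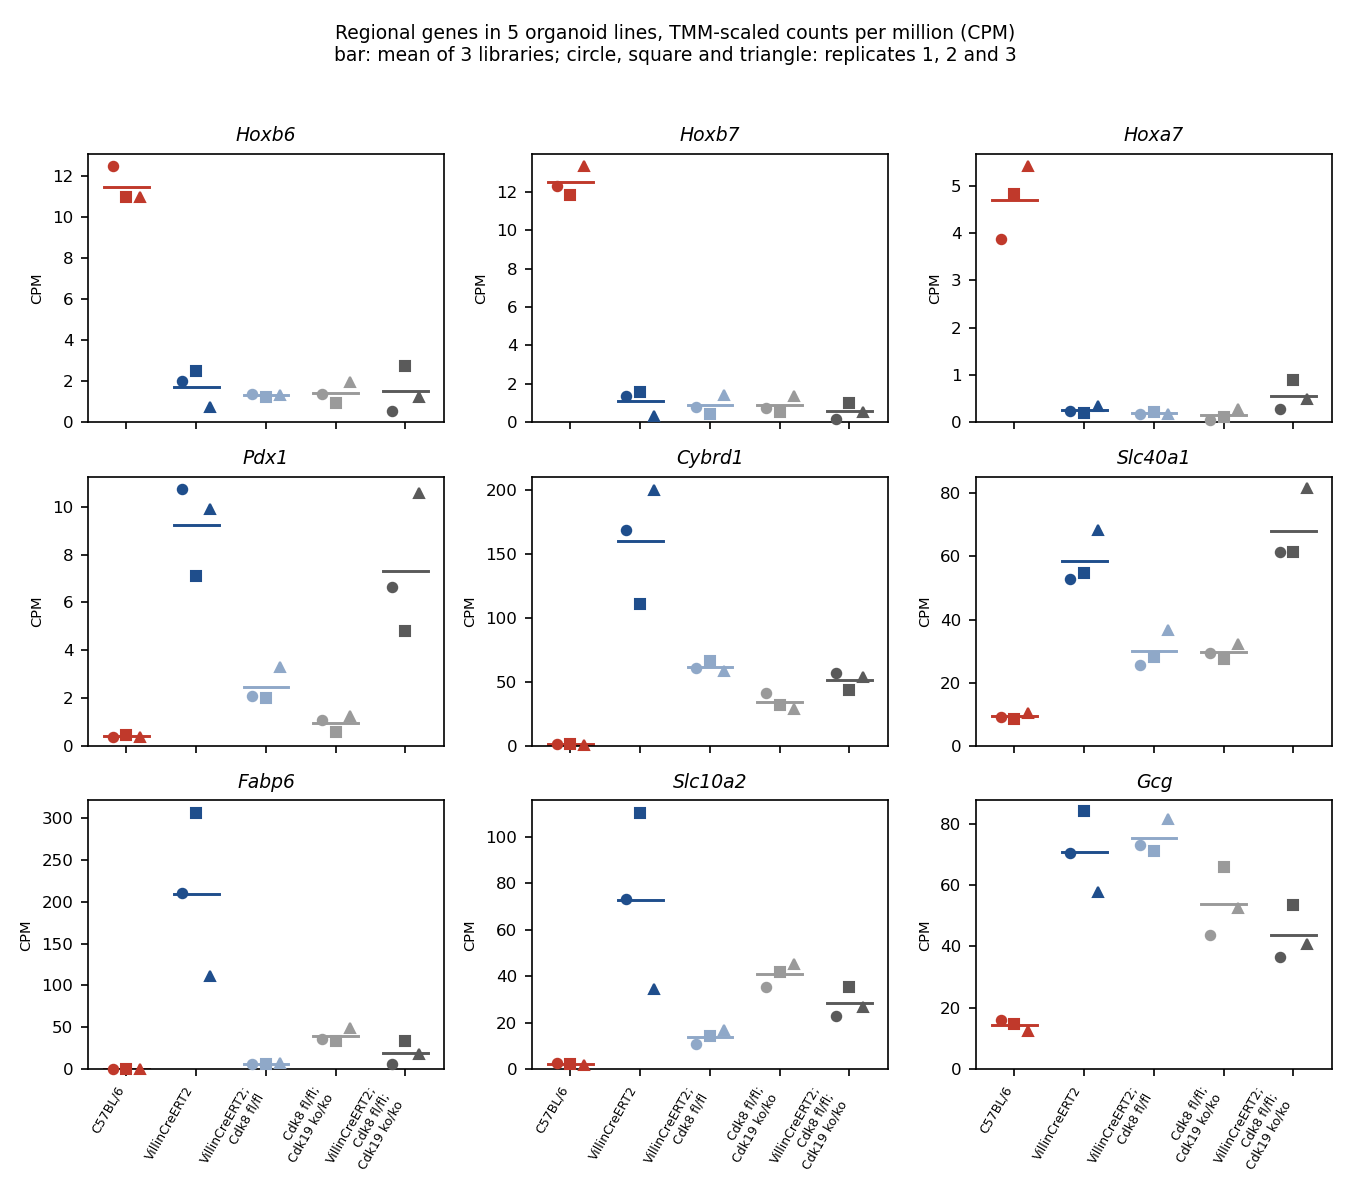
Levels (CPM, y axis from 0) of regional genes in each library of the 5 organoid lines; circles, squares and triangles are replicates 1, 2 and 3 and bars are means. Hoxa7 and Hoxb7 are highest in C57BL/6, while Cybrd1 and Fabp6 are near 0 there and highest in VillinCreERT2.

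Of 17 tested stem cell genes, 3 were called higher in C57BL/6 and none lower (17.6%, beside 15.5% of all genes called higher), and the median log2 fold change was 0.03. Lgr5, the R-Spondin receptor of crypt base stem cells, was at 58.6, 55.1 and 60.6 CPM against 31.6, 25.8 and 25.9 (1.06, SE 0.09, adjusted p = 7.92e-10), and the 3 other lines averaged 26.2, 29.5 and 23.9 CPM. Ascl2, the Wnt-driven stem cell factor, was at 8.76, 9.72 and 10.7 against 4.32, 3.36 and 5.15 CPM (1.19, SE 0.14, adjusted p = 9.05e-08). Olfm4, also a crypt base gene, was at 899, 891 and 935 against 953, 859.7 and 1046 CPM and was not called (-0.07, SE 0.16, adjusted p = 0.73). The lines did not overlap for Lgr5 and Ascl2 and did for Olfm4. They did not overlap for 12 of the 17 genes, beside 63.7% of all genes.

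Of 25 G1/S genes, 4 were called higher and none lower (median 0.21), and of 25 G2/M genes 1 was (median 0.23), beside 15.5% of all genes called higher. Mki67, the proliferation antigen, was at 411, 347 and 336 against 302, 279.9 and 278 CPM, under the fold cutoff (0.35, SE 0.10, adjusted p = 0.00498). The largest member changes were in Pold1, the catalytic subunit of DNA polymerase delta (0.84), and Cenpf, a kinetochore protein (0.80).

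Of 29 enterocyte genes, 11 were called lower and none higher, with a median of -0.34, and 5 of 10 villus tip genes were called lower and none higher, with a median of -0.72. Alpi, intestinal alkaline phosphatase, was at 365, 378 and 381 CPM against 1265, 1194 and 1521 (-1.83, SE 0.08, adjusted p = 9.69e-14). Akp3, the related duodenal alkaline phosphatase, was at 10.7, 10.9 and 16.3 against 225, 154 and 293 CPM (-4.14, SE 0.43, adjusted p = 8.65e-06). No library of one line reached into the other for either phosphatase. Slc6a19, a neutral amino acid transporter, fell by 1.62 on the log2 scale, and Slc2a5, the fructose transporter, fell by 1.34. At the villus tip, Ada, adenosine deaminase, was at 4.76, 5.46 and 5.06 against 14.2, 13.9 and 15.9 CPM (-1.52, SE 0.11, adjusted p = 1.59e-11), and Pmp22, a membrane protein, was at 1.14, 1.48 and 1.45 against 34.2, 57.5 and 23.9 (-4.81, SE 0.40, adjusted p = 1.1e-06).

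Paneth cell genes were mostly higher in C57BL/6. Of 22 tested, 14 were called higher and 1 lower, with a median of 1.11. Lyz1, the Paneth lysozyme (chr10:117287797-117292868), was at 2229, 2401 and 2658 CPM against 592, 608 and 624 (2.00, SE 0.06, adjusted p = 2.22e-19), with 553, 1439.6 and 247 CPM in the 3 other lines. Mptx2, a pentraxin of Paneth cells, was at 43.0, 47.1 and 49.2 against 1.52, 0.960 and 2.80 CPM (4.73, SE 0.20, adjusted p = 1.84e-12), and averaged 6.05, 35.1 and 1.67 CPM in the 3 other lines. Of the other lines, Cdk8 fl/fl; Cdk19 ko/ko was the nearest to C57BL/6. The alpha-defensins Defa17 (2.27) and Defa29 (2.14) rose as well, but share reads with near-identical copies, so their separate values are uncertain. The lines with the highest means of Lyz1 and Mptx2 were C57BL/6 and Cdk8 fl/fl; Cdk19 ko/ko. They share a column style with VillinCreERT2; Cdk8 fl/fl; Cdk19 ko/ko, which had the lowest means of both genes. Of the 15 called Paneth genes, 1 separated the libraries by column style (6.67%, against 29.6% of all called genes). No called gene of the Hox, distal, colon and enterocyte lists did. The part of the style was not tested. The member called lower was Nupr1, a stress-induced chromatin protein (-0.71).

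The other secretory lineages were mixed. Of 16 goblet genes, 6 were called lower and 2 higher. For 7 of these 8, the libraries of VillinCreERT2 alone lay outside the range of all other libraries. Guca2a, the guanylin precursor, was at 77.7, 98.9 and 97.7 against 236, 314 and 195 CPM (-1.44, SE 0.16, adjusted p = 1.12e-05), and Tff3, the goblet trefoil peptide, was at 336, 402 and 461 against 711, 700.2 and 685 (-0.81, SE 0.07, adjusted p = 3.82e-09). The 3 other lines averaged 103, 142 and 61.2 CPM of Guca2a and 458, 305 and 328 of Tff3. Muc2, the secreted mucin, was not called (-0.40, SE 0.12, adjusted p = 0.00999), and Galnt12, which starts O-linked glycans, was higher (0.95). Of 15 tuft genes, 3 were called higher and 1 lower (26.7%, beside 26.4% of all genes), and the lower one, the prostaglandin synthase gene Ptgs1, was not called without C57BL/6 replicate 2 (adjusted p = 0.0841) or by DESeq2 (adjusted p = 0.0506). Trpm5, the tuft cell cation channel, was at 6.98, 6.48 and 7.27 against 3.13, 3.93 and 4.80 CPM (0.81, SE 0.14, adjusted p = 3.04e-05), while Dclk1, the standard tuft marker, was at 9.58, 6.54 and 6.81 against 7.55, 7.34 and 7.05 and was not called (0.06, SE 0.14, adjusted p = 0.735).

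Enteroendocrine genes split. Of 23 tested, 9 were called higher and 9 lower. Neurog3, the factor that commits cells to the lineage, was at 6.92, 7.56 and 8.55 against 3.37, 3.21 and 3.95 CPM (1.13, SE 0.14, adjusted p = 1.24e-07). Pax4, a factor of early endocrine cells (2.43), Tph1, the serotonin synthesis enzyme of enterochromaffin cells (1.83), and the granule protein genes Chgb (1.29) and Chga (0.87) were higher too. In contrast, Sst, the hormone of D cells (chr16:23889573-23890958), was at 0.571, 1.31 and 1.05 against 17.3, 16.4 and 17.5 CPM (-4.10, SE 0.17, adjusted p = 2.12e-16), and the appetite hormone gene Ghrl fell by 2.40 on the log2 scale, like Pyy and Gcg above. Atoh1, which commits cells to the secretory fate, was not called (0.24, SE 0.09, adjusted p = 0.0217).

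**Figure D3:**
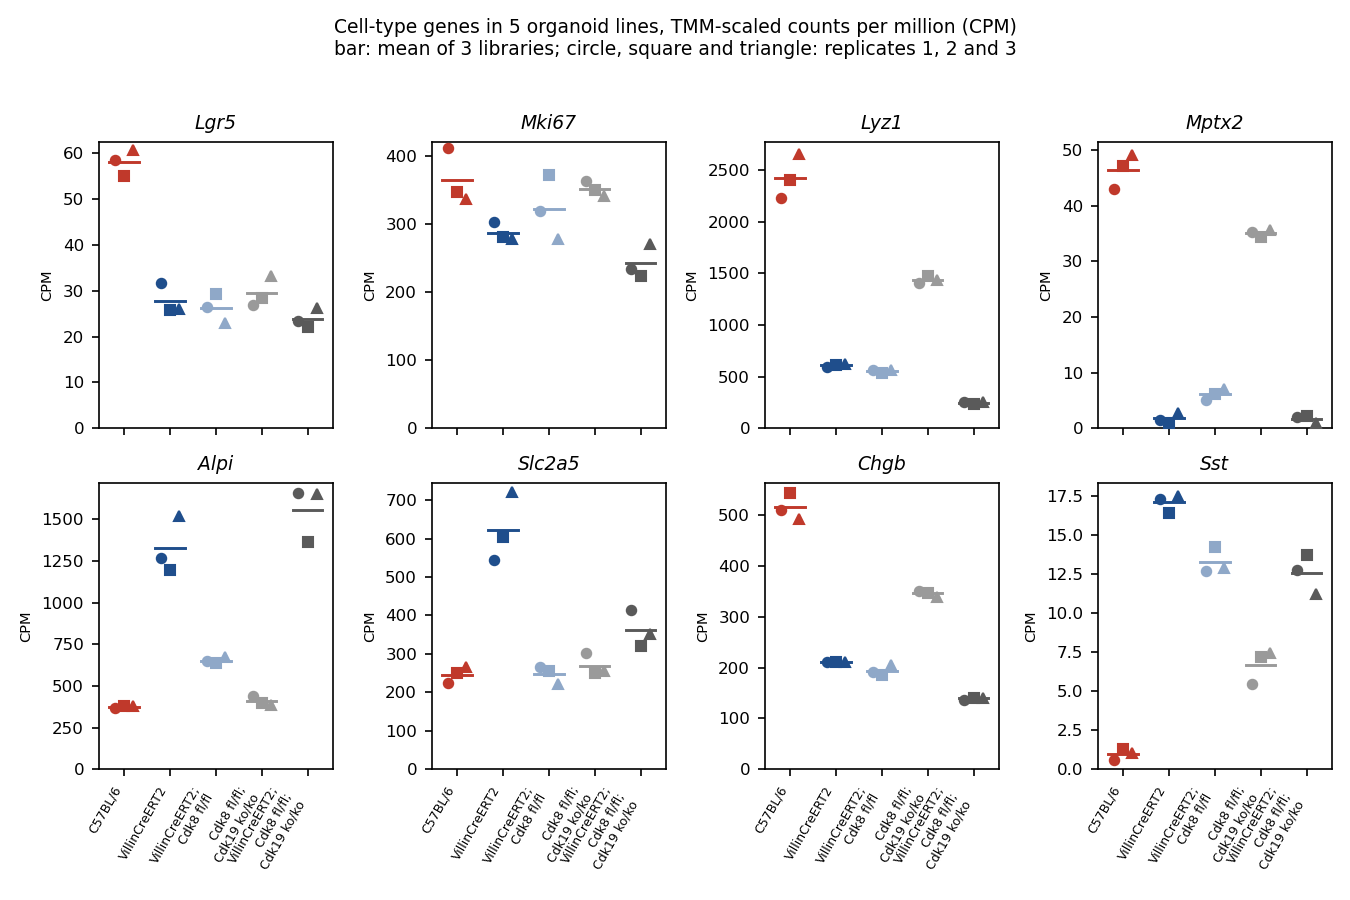
Levels (CPM, y axis from 0) of cell state genes in each library of the 5 organoid lines; symbols are replicates and bars are means. Lgr5 and Lyz1 are highest in C57BL/6, and Alpi is lower there than in VillinCreERT2.

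Stress-response genes were lower in C57BL/6 than in VillinCreERT2 in several lists. Of 25 p53 targets, 12 were called lower and none higher, 24 had a negative log2 fold change, and the median was -0.48. Of the 12, 6 separated all 15 libraries by column style (50%, against 29.6% of all called genes), and the part of that split was not tested. Cdkn1a, the cyclin-dependent kinase inhibitor p21, was at 253, 311 and 279 CPM in C57BL/6 and 512, 629 and 510.4 in VillinCreERT2 (-0.97, SE 0.10, adjusted p = 3.65e-07). The 3 other lines averaged 364, 381 and 394 CPM, so the means of both control lines lay outside them. Phlda3, a repressor of AKT, was at 2.54, 3.64 and 3.20 against 11.2, 8.83 and 10.0 CPM (-1.67, SE 0.15, adjusted p = 9.09e-10). Eda2r, a death-domain receptor (-1.68), and Plk2, a polo-like kinase (-1.61), were lower too. The C57BL/6 means of Phlda3, Eda2r and Plk2 were 3.13, 2.04 and 4.56 CPM. Those of Cdk8 fl/fl; Cdk19 ko/ko were lower, at 2.16, 0.384 and 3.48 CPM. For none of the 12 called targets did the libraries of C57BL/6 alone lie outside the range of all other libraries. Those of VillinCreERT2 alone did for 5 and those of both lines for 2, leaving 5 with neither. Mdm2, the p53 ubiquitin ligase, was at 52.6, 51.1 and 51.5 against 73.8, 78.4 and 82.2 CPM (-0.60, SE 0.06, adjusted p = 2.22e-09), and at -0.56, under the fold cutoff, without VillinCreERT2 replicate 3.

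ATF4 targets, which are switched on by amino acid shortage and other stresses, had 13 of 19 genes called lower and none higher (median -0.75). Chac1, a glutathione-degrading enzyme, was at 6.85, 7.62 and 6.46 against 26.1, 27.4 and 23 CPM (-1.87, SE 0.10, adjusted p = 3.24e-14), and Trib3, a pseudokinase that restrains ATF4, fell by 1.58 on the log2 scale. Aldh1l2, a mitochondrial folate enzyme, fell by 2.62. Of the 13, 11 separated the libraries by column style (84.6%). None of 21 ER folding genes was called by edgeR, 16 were at an unadjusted p under 0.05 (beside 9808 of all 15125 genes), and their median was -0.16.

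NRF2 and glutathione genes had 8 of 23 called lower and 1 higher (median -0.55). Slc7a11, the cystine importer, was at 3.87, 3.75 and 1.86 against 18.1, 18.3 and 16.4 CPM (-2.48, SE 0.16, adjusted p = 5.42e-12), and Hmox1, heme oxygenase 1, was at 5.65, 6.71 and 7.57 against 31.8, 31.5 and 32.5 (-2.26, SE 0.10, adjusted p = 4.24e-16). Of the 9 called members, 6 separated the libraries by column style (66.7%). The member called higher was Ugt1a6a, a glucuronosyltransferase (1.18). Heat shock genes had 4 of 11 called lower and 1 higher, with a median of -0.20. Their summed level was higher in C57BL/6, at 4469 to 4599 CPM against 4164 to 4318 in VillinCreERT2. Hspa1b, an inducible HSP70 whose reads are shared with Hspa1a, fell by 1.66 on the log2 scale, and Hspe1, the mitochondrial HSP10, was higher (0.80). Immediate early genes had 6 of 21 called lower and 1 higher (33.3%, beside 26.4% of all genes). Among those lower were Atf3, at 12.6, 14.7 and 11.3 against 36.1, 37.6 and 34.2 CPM (-1.48, SE 0.10, adjusted p = 3.38e-12), and Klf4, a differentiation factor (-0.99).

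Of 16 regenerative and fetal-like genes, 6 were called lower and 1 higher. Sprr1a, a small proline-rich protein of injured epithelium, was at 30.3, 33.4 and 32.3 against 151, 189 and 148 CPM (-2.34, SE 0.13, adjusted p = 8.48e-10), while Ly6a, also known as Sca-1, was at 2.79, 2.44 and 2.91 against 0.807, 0.672 and 0.400 and was higher (2.10). Of 18 inflammatory and antimicrobial genes, 7 were called lower and 3 higher. Reg1, a secreted lectin, was at 11.8, 18.0 and 14.9 against 124, 125 and 171 CPM (-3.23, SE 0.26, adjusted p = 1.07e-06), Nos2, inducible nitric oxide synthase, fell by 2.54 on the log2 scale, and Ccl20, a chemokine, fell by 2.49. The members called higher were Reg3a, at 247, 302 and 312 against 105, 119.9 and 126 CPM (1.29), the related lectin Reg3g (0.66) and the chemokine gene Ccl28 (0.63), and Reg3 genes share reads with near-identical copies. Reg3g was not called without C57BL/6 replicate 3 (0.48, adjusted p = 0.0774) or VillinCreERT2 replicate 3 (0.45), nor Ccl28 without C57BL/6 replicate 1 (0.53). The summed level of the list was 4012 to 4135 CPM in C57BL/6 and 3112 to 3349 in VillinCreERT2. Of 23 interferon-stimulated genes, 5 were called lower and none higher, and the median was -0.01. That is 21.7% called, beside 26.4% of all genes called in either direction and 10.9% called lower.

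**Figure D4:**
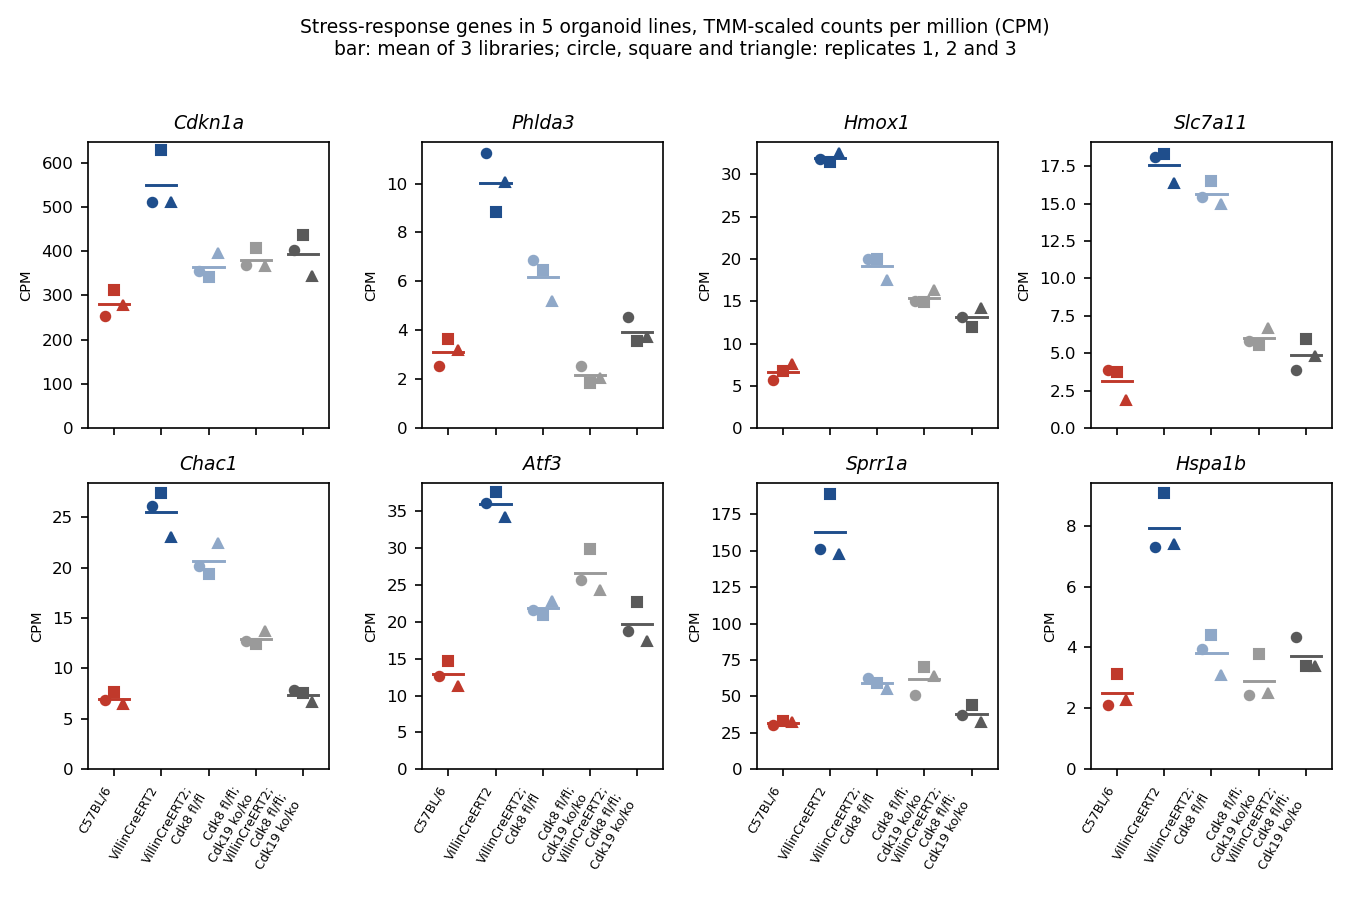
Levels (CPM, y axis from 0) of stress genes in each library of the 5 organoid lines; symbols are replicates and bars are means. The means of Cdkn1a, Hmox1 and Chac1 are lowest in C57BL/6 and highest in VillinCreERT2, and for Chac1 the libraries of C57BL/6 and VillinCreERT2; Cdk8 fl/fl; Cdk19 ko/ko overlap.

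Some genes were near 0 in C57BL/6 and expressed in every other library. By a rule chosen after the values were seen, at most 3 counts in each library of 1 line and at least 1 CPM in all 12 libraries of the other lines, 20 genes were low in C57BL/6, 15 of them protein coding, none in VillinCreERT2, and 1 in VillinCreERT2; Cdk8 fl/fl; Cdk19 ko/ko. Asking for 2 CPM elsewhere left 12 genes low in C57BL/6 and asking for 0 counts left 6, both chosen after seeing the data. Mmp14, a membrane-bound matrix metalloproteinase (chr14:54431612-54445364), had no count in C57BL/6 and was at 22.6, 15.7 and 25.4 CPM in VillinCreERT2, at least 119-fold lower, with 39.4, 16.6 and 33.6 CPM in the 3 other lines. Gas6, the ligand of the TAM receptor kinases (chr8:13465374-13494490), had 0, 2 and 0 counts against 52.5, 54.3 and 41.4 CPM. Pkd2, the polycystin-2 cation channel (chr5:104459450-104505819), had no count against 4.75, 4.80 and 5.25 CPM, and Slc36a4, an amino acid transporter (chr9:15709738-15743361), had 1 count in each library against 3.61, 3.45 and 2.95 CPM. The rule that chose these genes fixes that the 12 other libraries lie above those of C57BL/6.

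Promoter sequences are shown for these 4 genes to set genes with few or no reads in 1 line beside the CG content of their promoters. They are the 250 bases before the RefSeq start (GRCm38.p6), written along the gene's strand with each CG in capitals, and counting CG was chosen after the values were seen. They lie at chr14:54431348-54431597 (plus strand), chr8:13494536-13494785 (minus), chr5:104459207-104459456 (plus) and chr9:15709488-15709737 (plus).
Mmp14: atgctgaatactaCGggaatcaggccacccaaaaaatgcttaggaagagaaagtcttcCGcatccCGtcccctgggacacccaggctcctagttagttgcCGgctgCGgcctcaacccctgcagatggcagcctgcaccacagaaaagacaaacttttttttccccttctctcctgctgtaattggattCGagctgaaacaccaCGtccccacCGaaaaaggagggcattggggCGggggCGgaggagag
Gas6: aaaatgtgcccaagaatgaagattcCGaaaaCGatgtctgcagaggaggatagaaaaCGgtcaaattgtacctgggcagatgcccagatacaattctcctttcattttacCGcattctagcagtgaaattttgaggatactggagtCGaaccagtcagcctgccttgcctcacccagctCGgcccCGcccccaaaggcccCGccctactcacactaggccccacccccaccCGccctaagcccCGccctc
Pkd2: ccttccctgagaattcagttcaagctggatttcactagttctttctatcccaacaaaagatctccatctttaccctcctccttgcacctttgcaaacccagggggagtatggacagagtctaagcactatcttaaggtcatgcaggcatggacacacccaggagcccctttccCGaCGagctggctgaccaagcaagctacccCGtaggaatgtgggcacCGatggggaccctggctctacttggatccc
Slc36a4: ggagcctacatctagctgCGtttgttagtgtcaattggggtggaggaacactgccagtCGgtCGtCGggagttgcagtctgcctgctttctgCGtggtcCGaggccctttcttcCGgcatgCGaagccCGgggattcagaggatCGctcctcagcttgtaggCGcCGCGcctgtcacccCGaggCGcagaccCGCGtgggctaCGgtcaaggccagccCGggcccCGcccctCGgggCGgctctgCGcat
The promoters of Mmp14 and Gas6 hold 10 CG each, that of Pkd2 holds 4 and that of Slc36a4 holds 23. The observed over expected CG ratio is 0.527 in Mmp14, 0.570 in Gas6, 0.236 in Pkd2 and 0.846 in Slc36a4. The median of all tested genes with a promoter was 16 CG and a ratio of 0.728, that of genes called in either direction was 13 CG and 0.630, and that of the 14 of the 20 low genes with a promoter was 10 CG and 0.497. These are the reference sequences, and no sequence of either line was read.

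Of the 10 largest fitted falls, whose order cannot be read at these counts, 7 had no count in C57BL/6, Mmp14, Car1, Igsf9b, Zfp783 and the 3 that follow. Esr1, the estrogen receptor alpha (chr10:4611593-5005614), was at 8.78, 9.16 and 9.35 CPM in VillinCreERT2, at least 51.0-fold lower in C57BL/6, and was also at 0 in Cdk8 fl/fl; Cdk19 ko/ko. Ereg, the EGF receptor ligand epiregulin, was at 13.8, 22.4 and 9.35 CPM (at least 85.0-fold lower), and C2cd4a, an inflammation-induced nuclear protein, at 11.6, 13.8 and 10.8 (at least 67.8-fold lower). The largest rise was the long non-coding RNA gene Gm42031 (chr8:85125872-85132289), at 282, 288 and 289 CPM in C57BL/6, with 2 or 3 counts in each VillinCreERT2 library. Khdc1a (5.69) and Pappa2, a protease that cleaves IGF-binding proteins (4.32), were also among the 10 largest rises.

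**Figure D5:**
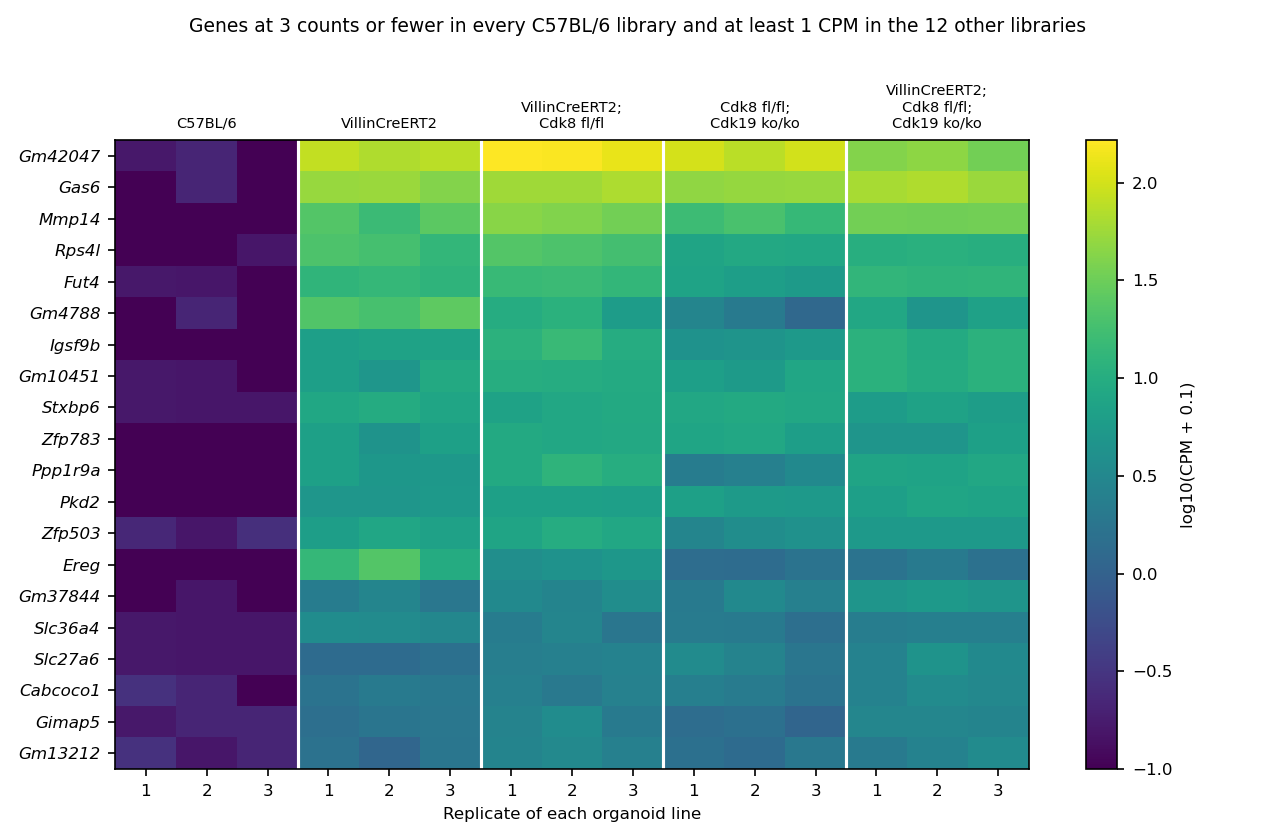
Heat map of the 20 genes low in C57BL/6 only: each row is a gene, each column a library of the 5 organoid lines, and colour is log10 of CPM + 0.1. The 3 C57BL/6 columns are dark for all 20 genes and the 12 others lighter, by the rule that chose the genes.

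Long non-coding genes were called more often than protein-coding genes. Of 1258 tested, 621 were called (49.4%), 534 higher in C57BL/6 and 87 lower, against 2815 of 12288 protein-coding genes (22.9%), 1434 higher and 1381 lower. Malat1, an abundant nuclear RNA, was at 128, 129 and 213 CPM against 42.0, 34.8 and 34.0 (2.08, SE 0.22, adjusted p = 7.9e-06), and Neat1, the paraspeckle RNA, rose by 1.02. With protein-coding genes ranked by exon length into 3 classes of 3921, the share called higher in C57BL/6 was 16.3% of the short, 11% of the middle and 7.8% of the long class, and the share called lower was 10.8%, 11% and 11.7%. Of 15 mitochondrially encoded genes, 11 were called higher and 1 lower, and 9 of these 12 separated the libraries by column style (75%). Mitochondrial share, depth and gene length moved with these calls, and their part was not tested.

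Clock genes moved in both directions, with 3 of 16 called higher and 3 lower (37.5%, beside 26.4% of all genes). Of the 6, 3 separated the libraries by column style (50%), Dbp and Per3 among them. Dbp, a clock output factor, was at 19.7, 19.9 and 19.9 CPM against 7.40, 6.33 and 7.10 (log2 fold change 1.52), Hlf rose by 1.77 and Per3 by 1.20, and Nfil3, which represses the targets of Dbp and Hlf, fell by 1.16. Xist, the X inactivation RNA, was at 804, 599 and 587 against 432, 342 and 366 CPM (0.80, SE 0.12, adjusted p = 5.43e-05), and the Y-linked gene Ddx3y had no count in either line. The 3 other lines differed from both, with mean Xist levels of 0.214 to 0.297 CPM and mean Ddx3y levels of 56.6 to 65.5 CPM. Nnt, which carries a deletion in the C57BL/6J substrain, was at or under 0.475 CPM in all 6 libraries and was not called (0.29, SE 0.55, adjusted p = 0.665). Of the 4 tested genes of a list known to vary between mouse strains, which includes Nnt, 2 were called higher and 1 lower. Wdfy1, a FYVE-domain adaptor, rose by 2.26 on the log2 scale, Pla2g2a, the secreted phospholipase whose reading frame is broken in C57BL/6 mice, rose by 2.08, and the third was Akp3. The part of strain background in the results was not tested.

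Marker lists of other cell types were at low levels, and most summed higher in C57BL/6. Mesenchyme markers summed to 10.34 to 11.06 CPM in C57BL/6 and 6.381 to 6.948 in VillinCreERT2, with 4 of 14 at 0, and immune markers to 7.1 to 7.785 and 2.8 to 3.399 CPM, with 3 of 12 at 0. Neuron and glia markers summed to 1.989 to 2.221 and 0.672 to 0.900 CPM, endothelium markers to 2.27 to 2.602 and 1.329 to 2 CPM, and stomach markers to 6.156 to 9.544 and 2.639 to 4.129 CPM, each with 2 at 0. Pancreas markers summed to 30.78 to 47.72 and 21.64 to 32.89 CPM, ranges that overlap, with 7 of 10 at 0. Of 13 epithelial identity genes, none was called higher and 1 lower. Their part in the results above was not tested.

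Within VillinCreERT2, libraries differed in several lists. All 15 tested distal genes were highest in replicate 2, against 35.9% of all genes, and 19 of 23 proximal genes (82.6%) were highest in replicate 3, against 33.4%. Other lists did so too: 14 of 15 mitochondrially encoded genes and 19 of 25 G2/M genes were highest in replicate 1, and 11 of 13 epithelial identity genes and 16 of 21 ER folding genes in replicate 2, while of 11 colon genes 5 were highest in replicate 2. The 10 genes of widest range in that line, Car1, Slc10a2, Fabp6 and Hoxb9 among them, were all highest in replicate 2, and 9 were lowest in replicate 3. Fabp6 at 211, 306 and 111 CPM is an example. Genes with a range over 1 on the log2 scale numbered 664 in C57BL/6 and 625 in VillinCreERT2, and log2 values of libraries of 1 line correlated across genes at 0.991 to 0.994, a description since genes are not independent replicates. In C57BL/6 the widest ranges were in Gsdmc4, a gasdermin, at 12.3, 8.75 and 24.1 CPM, and Proser1, at 22.6, 14.9 and 8.5.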

How the data were processed

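The authors deposited raw counts of reads per gene for poly-A RNA sequenced as 100 bp pairs, per the labels. The submitters' processing notes name STAR 2.5.2, Subread 1.6.3 with featureCounts and mm10, and strandedness is not given in the sources used here. The table holds 54752 genes and 0 unused sample columns. It was analysed with edgeR 4.0.16 in R 4.3.3 (filterByExpr with the groups, TMM, robust quasi-likelihood F test), fitting all 15 organoid libraries of 5 lines together with 10 residual degrees of freedom and testing C57BL/6 against VillinCreERT2, with Benjamini-Hochberg adjustment over 15125 genes. Standard errors are the log2 fold change over the root of F. Members, 47 gene lists and rules were chosen with earlier results of these data known, so a list is described by its counts and median and carries no test. The text names the 10 largest rises and falls among called genes averaging 50 counts, up to 4 called members per list and direction, the 10 genes of widest range in each line, and a set of fixed markers. The labels number replicates but do not say that they were separate cultures, so p-values measure the spread between these samples, which may be technical. No library pair differed by less than sampling noise. Fold bounds use a floor of 3 counts and cover counting error only. Simulated data for 14837 genes gave 85.3% recovery of 95 genes changed by 1 on the log2 scale and 93% of 100 changed by 1.5, with 1.69% of calls false. The simulation changed 200 genes, far fewer than were called here, and drew counts from the fitted spread between libraries. Its rates therefore need not hold for these calls. RefSeq promoters (250 bases before and 50 after the start) were matched for 9976 of the tested genes. Alternatives were upper quartile scaling, DESeq2 1.42.0, limma-voom 3.58.1, filters on low counts, other cutoffs, 6 libraries alone, a replicate block, no sex chromosomes and each library left out.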

Additional observations from a re-analysis of the deposited data

How the results depend on the processing

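Of 3986 called genes, 0 changed direction under the other scalings, tools, filters and left-out libraries, and at the same cutoffs 87.1% to 99.4% were called again, except 70.7% where at least 10 counts were required in every library, which leaves fewer genes to call. Calls numbered 3751 with DESeq2, 4139 with upper quartile scaling (67.3% of them higher against 58.7%, where the median of all genes moved to 0.10), 3999 with a replicate block, and 3720 to 4148 when each library was left out, with 2168 to 2365 higher and 1552 to 1783 lower. A fold cutoff of 2 left 1988 calls, 1172 higher and 816 lower, and adjusted p alone gave 9276, 4722 higher and 4554 lower. Between C57BL/6 and Cdk8 fl/fl; Cdk19 ko/ko, 794 genes were called, and 476 with at least 10 counts in every library. Same-numbered libraries deviated together with r of 0.0699, 0.0606 and 0.0380, under 0.1, so the numbers were not taken as pairs, and the block lost the call of Hoxb9 (adjusted p = 0.0671). Olfm4 changed sign to 0.016 with upper quartile scaling and ran from -0.14 to 0.0016 when each library was left out, Dclk1 from -0.13 to 0.16, Hoxa3 from -0.031 to 0.24 and Hoxa5 from -0.0088 to 0.27, none of them called. Car1 was not called by limma-voom (-8.26, adjusted p = 0.0963), and Hoxb8 and Hoxb9 not by DESeq2. With 10 counts required in every library, the Hox genes called higher fell from 8 to 1, and those called lower from 8 to 5 (distal), 6 to 2 (colon), 6 to 2 (bile acid), 9 to 5 (enteroendocrine) and 5 to 2 (interferon), and upper quartile scaling took hypoxia genes called lower from 4 to 2. Distal genes called lower reached 11 without VillinCreERT2 replicate 3, and G1/S genes called higher fell from 4 to 2 without replicate 2. The cause of these changes was not tested. Genes under about 3 counts in a line cannot be ranked at this depth.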

Other observations

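Of 22 fatty acid oxidation genes, 5 were called lower in C57BL/6 and 2 higher (31.8%), near the 26.4% of all genes called. Angptl4, a secreted inhibitor of lipoprotein lipase, was at 1.52, 0.966 and 1.11 CPM against 17.4, 19.3 and 18.8 (-3.95, SE 0.16, adjusted p = 1.5e-16). Of 25 cytochrome P450 and conjugation genes, 6 were called lower and 1 higher (28.0%). Cyp3a11, a drug-metabolizing enzyme, was at 176, 186 and 205 against 405, 386 and 483 CPM (log2 fold change -1.17), and Cyp1a1, an aryl hydrocarbon receptor target, was at 0, 0.455 and 0.116 against 3.46, 2.78 and 5.05 CPM (-4.20, and -5.81 without C57BL/6 replicate 2). None of 25 sterol and fatty acid synthesis genes was called by edgeR, 18 were at an unadjusted p under 0.05 (beside 9808 of all 15125 genes), and other scalings, tools, filters and left-out libraries, at the same cutoffs, gave 0 to 2 called lower and 0 to 1 higher.

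Of 16 MHC class I and antigen processing genes, 6 were called higher and 2 lower. Tap2, a peptide transporter subunit (1.12), and Psmb9, an immunoproteasome subunit (1.27), were higher, while the class I gene H2-D1, which shares reads with other class I genes, was lower (-0.71). Of 16 retinoid genes, 2 were called higher and 4 lower, Bco1 among the 4 (37.5%, beside 26.4% of all genes), with a median of -0.13. Cyp26b1, which degrades retinoic acid and was called higher, was at 3.68, 3.41 and 2.5 against 0.664, 0.624 and 0.700 CPM (2.26, SE 0.26, adjusted p = 5.21e-08). Of 23 Wnt pathway genes, 4 were called lower and 1 higher (21.7%, under the share of all genes), and 2 of the 5 separated the libraries by column style. Sfrp5, a secreted Wnt antagonist, had 1 count in each C57BL/6 library against 2.90, 2.35 and 3.20 CPM. Of 24 hypoxia genes, 4 were called lower and 2 higher (25%), near the share of all genes, and 4 of the 6 separated the libraries by column style. The called members included Slc2a1, the glucose transporter GLUT1 (-0.73), and Car9, a carbonic anhydrase (0.66, and 0.58, no longer called, without VillinCreERT2 replicate 2).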
